A study of Peniophora incarnata with 12 samples.

Results

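The cell cycle and DNA replication genes described here were 164 of the 16059 genes in the deposited expression table of Peniophora incarnata, a white-rot crust fungus of dead wood. They were the genes whose KEGG pathway names contained "Cell cycle" or "DNA replication". These words matched 166 genes, and 2 of them, ssn6 and MCM1, were left out because their descriptions name transcriptional regulators. Cell cycle pathways alone held 115 of the 164 genes, DNA replication alone held 39, and 10 were in both. A Meiosis pathway name was also attached to 71 of them. A description taken from a similar protein of another species was given for 146 genes, and 18 had none. The 146 described genes carried 98 distinct descriptions, and 38 descriptions were held by more than 1 gene (86 genes). Reads of near-identical copies can be split between them by the counting, so levels within such pairs are uncertain. Genes that share a description were counted separately in every count and share below, so these hold copies that can move together. Over the 12 libraries the log2 levels of the 2 mcm5 genes correlated at 0.98, and those of the 2 mpkB genes at -0.24.

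Wild-type strain T-7 was grown as mycelium for 30 days on 4 substrates, with 3 biological replicates each. The substrates were milled poplar wood (a broadleaf wood), milled Chinese fir wood (a conifer wood), milled rice straw, and PDA, the laboratory agar medium that served as control. All 12 libraries came from the same strain and time, and from poly(A)-selected RNA made with a stranded kit. Levels are in FPKM, fragments per kilobase of gene scaled to the size of each library, which allows genes of different lengths to be compared.

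A cell copies its chromosomes once per cycle. The origin recognition complex marks start sites, cdc18 and the MCM complex, a ring-shaped helicase, are loaded there, and the kinase hsk1 with its partner him1 switches the helicase on. Polymerases alpha, delta and epsilon then copy the strands while held to DNA by the sliding clamp PCNA, which the RFC complex loads. Cyclins and their kinase drive entry into mitosis, wee1 delays it and cdc25 releases it, and the anaphase-promoting complex ends it by marking cyclin and securin for destruction. These roles are known mainly from fission yeast and budding yeast, whose gene names the table uses.

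The libraries were counted at 23398461 to 31132066 reads. At the median coding length of 1413 bp, 1 FPKM stood for 33.06 to 43.99 reads. The 3 poplar libraries were less alike (correlation of log2 levels over genes 0.865 to 0.95) than those of the other groups (0.967 to 0.989). In each of the other groups, 1 library (Chinese fir 1, rice straw 3, PDA 2) lay close to a weighted mean of the other 2, with a chi-square per gene of 4.77 to 7.48 against 24.38 to 48.25 for the remaining libraries of these groups. The labels do not say whether these 3 intermediate libraries are independent of the other 2 in their groups. If they are not, n is smaller than printed and the SEs and p-values are too small, so the main results are given with and without them. All 27 mycelium marker genes (chitin and glucan synthases and hydrophobins) passed the level filter, with summed levels of 1390 to 2170 FPKM. The 4 markers of meiotic cells (rec12, rec8, dmc1 and HOP1) were not at 0. Their summed level was 87.4 to 262 FPKM on poplar wood, 38.3 to 44 on Chinese fir wood, 103 to 108 on rice straw and 65.2 to 75 on PDA, and their part in the results below was not tested.

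Of the 164 genes, 147 reached 1 FPKM in at least 3 libraries and were tested, with 13974 genes in all. A gene was called when its log2 difference was at least 1 in size and its adjusted p was under 0.05 (limma on log2(FPKM + 1), Benjamini-Hochberg over all 13974 genes). A call is said to hold throughout when it also passed with each of the 12 libraries left out in turn, without the 3 intermediate libraries and after median-of-ratios scaling. Differences on this scale understate the change of genes with low levels. Because FPKM values are shares of a library, fewer cells of a kind and less RNA per cell cannot be told apart.

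On poplar wood against PDA, 7 of the 147 genes rose and 13 fell, where 25.4% of all tested genes were called in either direction (8.3% higher and 17.1% lower). On Chinese fir wood, 5 rose and 37 fell (background 30.5%, 5.91% higher and 24.5% lower), and on rice straw 3 rose and 20 fell (background 20.9%, 6.81% higher and 14.1% lower). The shares called lower, 8.84%, 25.2% and 13.6% of the 147, were below or near the background in each comparison. The median log2 difference of the 147 genes was -0.09 on poplar wood, -0.48 on rice straw and -0.70 on Chinese fir wood. Over all tested genes it was -0.18, -0.25 and -0.51 in that order. Scaling the libraries by median of ratios moved the median of all genes to 0.02, -0.01 and -0.02. The calls were then 10 higher and 10 lower on poplar wood, 9 and 12 on Chinese fir wood, and 3 and 7 on rice straw, and all those lower were also lower before scaling. Without the 3 intermediate libraries, 7 rose and 8 fell on poplar wood, 4 rose and 19 fell on Chinese fir wood, and 2 rose and 7 fell on rice straw. Over all tested genes, leaving them out took the lower calls from 2396 to 1870 on poplar wood and from 3430 to 2319 on Chinese fir wood. On rice straw these went from 1971 to 962. The higher calls over all tested genes went from 1160 to 845, 826 to 554 and 952 to 484 in that order. Without poplar 1, 13 genes were called higher on poplar wood, and without poplar 3, 23 were called lower.

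Between plant materials, 41 genes were higher and 1 lower on poplar wood than on Chinese fir wood (background 24.2%, 17.5% higher and 6.73% lower). After scaling the counts were 11 higher and 6 lower, where 9.64% and 11.4% of all genes were called. This higher count was 23 without poplar 3 and 27 without the intermediate libraries, and the lower count was 2 without poplar 1 and 6 without poplar 3. Poplar wood against rice straw gave 22 higher and 9 lower (background 28.8%, 14.4% in each direction). After scaling it gave 20 and 10, where 13.3% and 15.6% of all genes were called. Without poplar 1 the unscaled counts were 41 and 5, and without the intermediate libraries 17 and 5. Chinese fir wood against rice straw gave 5 higher and 9 lower (background 19.9%, 5.7% higher and 14.2% lower). After scaling it gave 11 and 7, where 9.17% and 9.82% of all genes were called. Unscaled counts without the intermediate libraries were 3 and 6. Over all 6 comparisons, 83 of 147 genes (56.5%) were called at least once, where 59.2% of all tested genes were.

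Separation of the libraries gave a second count that uses no threshold on size. All 3 poplar libraries were above all 3 PDA libraries for 24 of the 147 genes and below for 32 (38.1% in either direction), where 17.1% and 30.8% of all tested genes were (47.9% in either). Chinese fir wood was above PDA for 14 genes and below for 105 (81%), where 14.2% and 56.7% of all genes were (70.9%). Rice straw was above PDA for 11 and below for 93 (70.7%), where 20.9% and 43.9% were (64.8%). Poplar wood was above Chinese fir wood for 58 and below for 6 (background 31.9% and 12.6%, 44.5% in either), and above rice straw for 55 and below for 11 (background 25.9% and 23.8%, 49.7% in either). Chinese fir wood was above rice straw for 24 and below for 52 (background 18.1% and 40.4%, 58.6% in either).

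**Figure D1:**
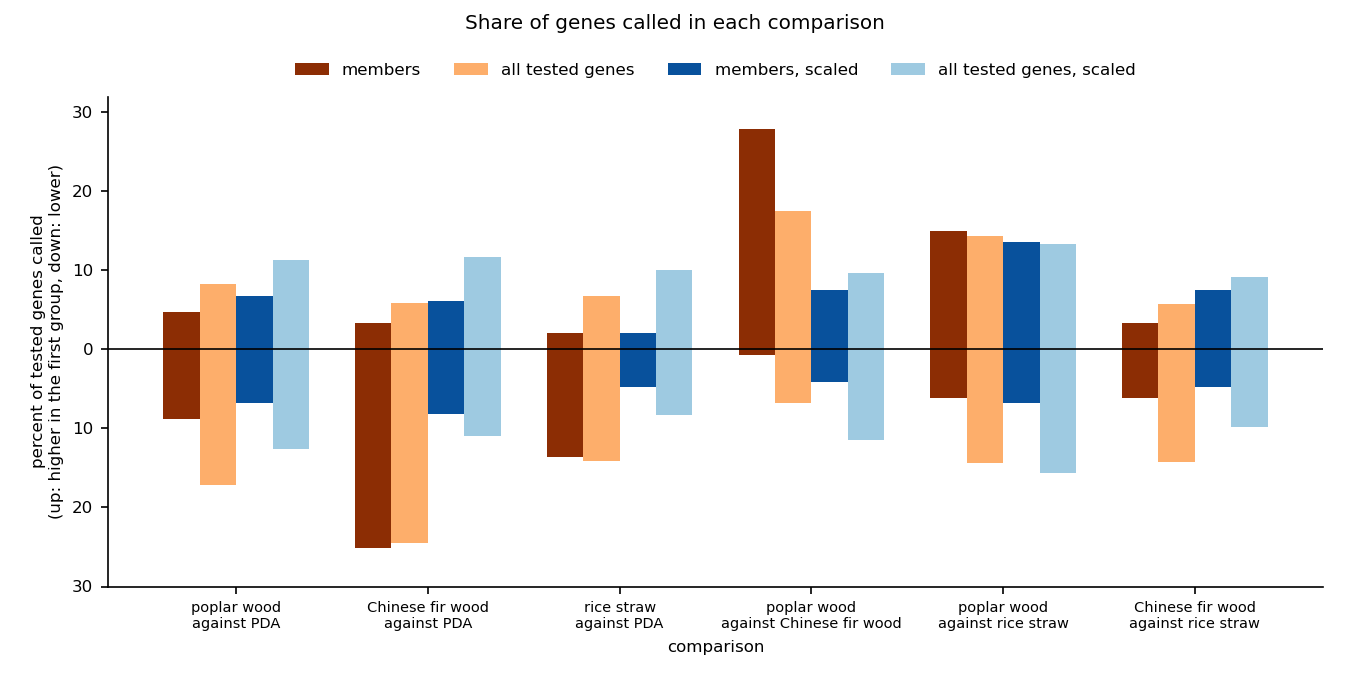
Percent of tested genes called higher (bars above 0) or lower (bars below 0) in the first group of each of the 6 comparisons, for the 147 cell cycle and DNA replication genes and for all 13974 tested genes, before and after median-of-ratios scaling. The bars of the 147 genes exceed those of all genes most clearly for poplar wood against Chinese fir wood before scaling (41 of 147 against 17.5%), and not after it.

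The mean level was highest on poplar wood for 65 of the 147 genes and on PDA for 58, against 13 on rice straw and 11 on Chinese fir wood. These are 44.2%, 39.5%, 8.84% and 7.48% of the genes, where 31.3%, 37%, 20.8% and 10.8% of all tested genes had their highest mean in the same groups. It was lowest on Chinese fir wood for 85 genes (57.8%), where 43.6% of all tested genes had their lowest mean. The summed level of all 164 genes was 5270 to 6910 FPKM on poplar wood, 4340 to 4490 on Chinese fir wood, 3750 to 4160 on rice straw and 6270 to 6490 on PDA.

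**Figure D2:**
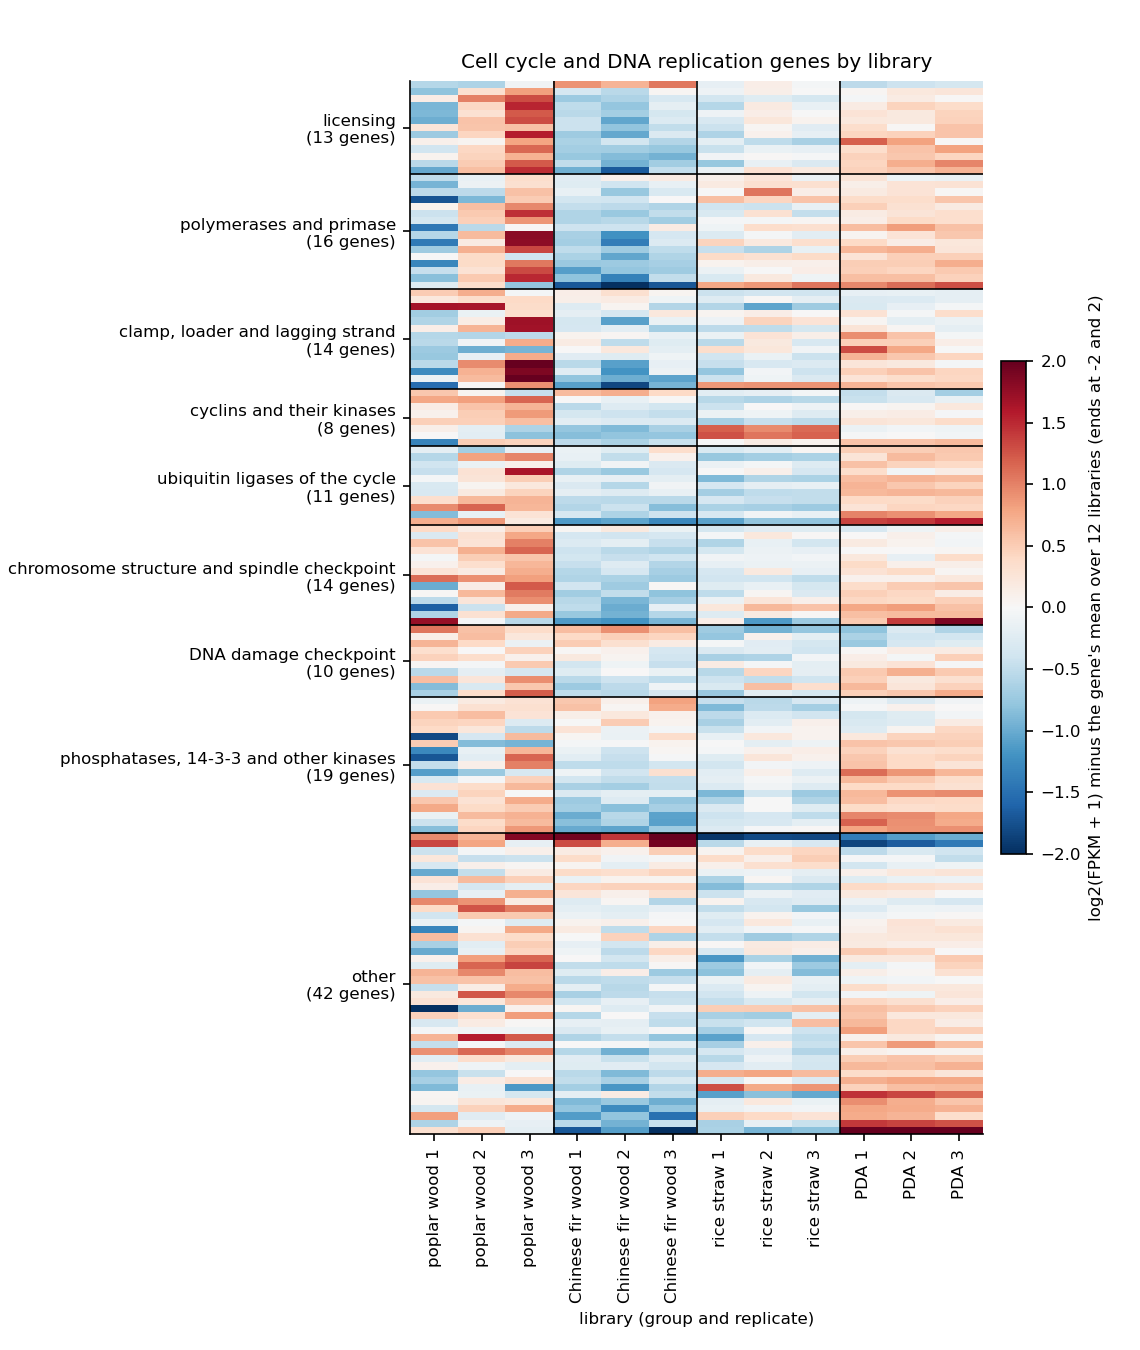
Level of each of the 147 tested genes (rows, grouped by role) in the 12 libraries (columns), as log2(FPKM + 1) minus the gene's mean over the libraries, with red above and blue below that mean. The 3 poplar libraries differ most within the licensing, polymerase and clamp lists, and Chinese fir wood is mostly blue.

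Helicase and origin genes were mostly low on Chinese fir wood, with 1 opposite case in mcm2. Of 13 tested licensing genes, 6 fell and 1 rose on Chinese fir wood against PDA (46.2% and 7.69%). Over all tested genes 24.5% fell and 5.91% rose. The 6 were mcm6, both mcm5 copies, mcm7 A16603, orc4 and orc1. None of the 6 was called lower after scaling, when the list median went from -0.88 to -0.45. Without the intermediate libraries 2 of the list were called lower, and 1 of them, orc4, was among the 6. On rice straw 2 fell (15.4%, where 14.1% of all tested genes fell), mcm5 A00380 and orc1. Neither was called without the intermediate libraries. On poplar wood none was called in either direction, where 25.4% of all tested genes were (limma). Without poplar 1, 1 was called higher on poplar wood. Against Chinese fir wood, 6 were higher on poplar wood (46.2%) and 1, mcm2, was lower (7.69%). Of all tested genes 17.5% were higher and 6.73% lower. The list's higher count was 1 after scaling, where 9.64% of all tested genes were higher. Before scaling it was 10 without poplar 1, 2 without poplar 3, and 3 without poplar 2, Chinese fir 2 or the intermediate libraries.

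The MCM subunit genes of Chinese fir wood split. For mcm2, levels were 114, 97.6 and 127 FPKM on Chinese fir wood, 40.4, 39.1 and 57.9 on poplar wood, 42, 45.1 and 47.5 on PDA and 54, 66.8 and 59.2 on rice straw. Every Chinese fir library lay above every other library. The log2 difference from PDA was 1.31 (SE 0.19, limma adjusted p = 0.000182), and poplar wood was lower than Chinese fir wood by a log2 difference of -1.30 (SE 0.19, limma adjusted p = 0.000318). Both calls held throughout, and after scaling the difference from PDA was 1.89.

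The other subunits of the same ring did not follow mcm2. For mcm6, levels were 2.98, 1.4 and 4.52 FPKM on Chinese fir wood and 9.61, 10.3 and 11.3 on PDA, and the groups did not overlap (log2 difference -1.60, SE 0.50, limma adjusted p = 0.0189). This call was lost without Chinese fir 2, without PDA 3 and without the intermediate libraries. The poplar libraries spanned the whole range of mcm6, at 2.78, 10.7 and 20.5 FPKM.

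The mcm5 copies A00380 and A15146 have the same coding length of 2289 bp and similar levels in every library. A00380 was at 5.47, 3.74 and 4.6 FPKM on Chinese fir wood and 11.3, 14.1 and 16.9 on PDA (log2 difference -1.43, SE 0.37, limma adjusted p = 0.00693), and A15146 had a difference of -1.28 (SE 0.31, limma adjusted p = 0.00492). No Chinese fir library reached the PDA range for either copy, and both calls were lost without the intermediate libraries. On rice straw A00380 was at 4.41, 7.22 and 6.45 FPKM, below PDA (log2 difference -1.11, SE 0.37, limma adjusted p = 0.0322), a call lost without PDA 2, PDA 3, rice straw 1 or rice straw 3, without the intermediate libraries and after scaling. The fall of mcm7 A16603 on Chinese fir wood (log2 difference -1.16, SE 0.45, limma adjusted p = 0.0468) was lost in 10 of the 12 fits that left out 1 library.

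Copies of mcm3 differed in their calls. For A15113, levels were 6.51, 12.6 and 15.8 FPKM on poplar wood, 3.07, 3.39 and 4.45 on Chinese fir wood, 5.62, 6.58 and 5.85 on PDA and 4.25, 4.75 and 4.33 on rice straw. All poplar libraries were above all Chinese fir and rice straw libraries, and poplar wood was higher by 1.38 against Chinese fir wood (SE 0.26, limma adjusted p = 0.00151) and 1.14 against rice straw (SE 0.26, limma adjusted p = 0.00385) on the log2 scale. The second call was lost without poplar 3. The other copy, A00412, was at 1.81, 6.06 and 14.1 FPKM on poplar wood and was called in no comparison. Both mcm4 copies and mcm7 A12798 were also called in none.

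Origin recognition genes were low in level. For orc4, levels were 3.17, 2.83 and 2.65 FPKM on Chinese fir wood, 6.41, 8.53 and 10.4 on poplar wood, 8.68, 9.2 and 8.48 on PDA and 5.68, 6.13 and 5.89 on rice straw. The Chinese fir libraries were the lowest 3, and orc4 fell by 1.33 against PDA on the log2 scale (SE 0.18, limma adjusted p = 0.000114). This call held with any 1 library or the 3 intermediate libraries left out, and was lost after scaling (-0.85). For orc1, which marks origins with orc4, levels were 2.53, 3.23 and 2.63 FPKM on Chinese fir wood, 11.5, 8.56 and 4.57 on PDA and 3.79, 2.84 and 2.48 on rice straw. Its calls on Chinese fir wood (-1.21, SE 0.29, limma adjusted p = 0.00532) and rice straw (-1.13, SE 0.29, limma adjusted p = 0.0108) were both lost without PDA 1, the library with the highest level, without the intermediate libraries and after scaling. Both orc2 copies and orc3 A12480 and A18113 did not pass the level filter.

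Loading and firing genes outside that list had their own calls. For cdc18, the loader of the MCM ring, levels were 2.09, 3.46 and 2.56 FPKM on rice straw, 6.34, 11.2 and 14.5 on poplar wood, 5.98, 4.39 and 6.47 on Chinese fir wood and 6.94, 6.96 and 8.98 on PDA. The rice straw libraries were the lowest 3, with a log2 difference of -1.23 from PDA (SE 0.27, limma adjusted p = 0.00427) that was lost after scaling (-0.98) and without the intermediate libraries. Poplar wood was above rice straw by 1.61 (SE 0.27, limma adjusted p = 0.000535).

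Both copies of hsk1, the kinase that activates the loaded helicase, fell on Chinese fir wood and rice straw. For A02890, levels were 10.8, 19.1 and 20 FPKM on poplar wood, 5.52, 7.84 and 5.19 on Chinese fir wood, 24.5, 23.9 and 21.1 on PDA and 8.72, 9.25 and 8.17 on rice straw. The order Chinese fir wood, rice straw, PDA held without overlap, and the log2 differences from PDA were -1.77 (SE 0.23, limma adjusted p = 9.04e-05) and -1.31 (SE 0.23, limma adjusted p = 0.00114). For A00145, which has the same length, the differences were -1.78 (SE 0.26, limma adjusted p = 0.000171) and -1.23 (SE 0.26, limma adjusted p = 0.0031). The Chinese fir calls of both copies held after scaling, and both rice straw calls were lost without the intermediate libraries, that of A00145 also after scaling. Its activating partner him1 also fell on Chinese fir wood, from 8.71, 9.25 and 9.18 FPKM on PDA to 3.25, 2.81 and 3.85 (log2 difference -1.23, SE 0.24, limma adjusted p = 0.0013), a call lost after scaling (-0.73).

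**Figure D3:**
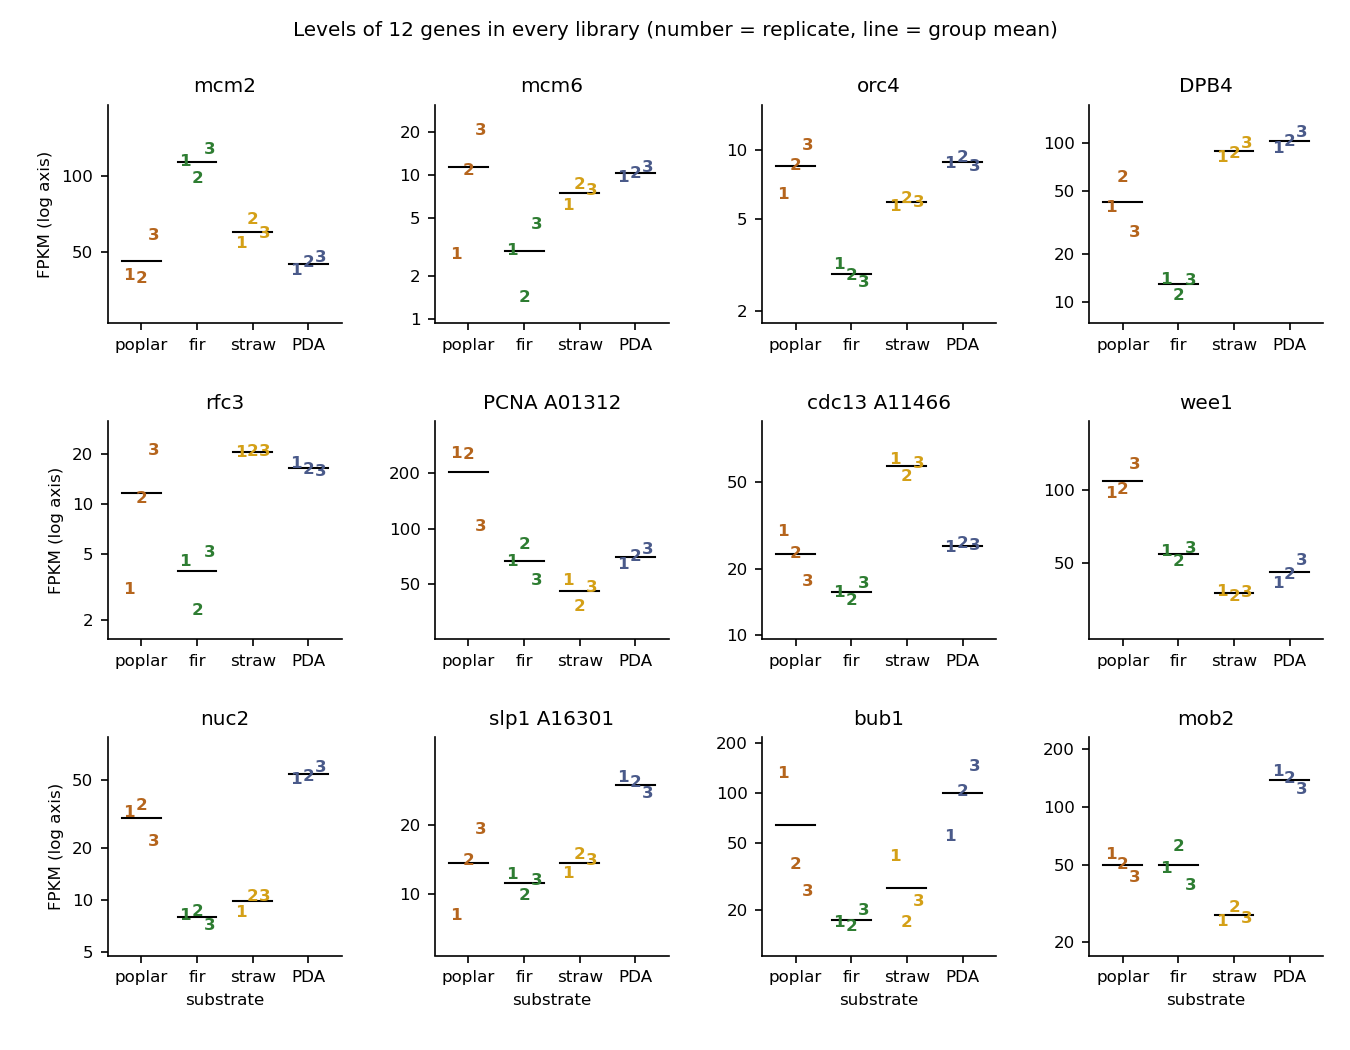
Levels of 12 genes in every library on a log axis in FPKM, with each number marking the replicate and each line the group mean. On Chinese fir wood mcm2 is the highest of the 4 groups while mcm6, orc4 and DPB4 are the lowest, and cdc13 A11466 is highest on rice straw.

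Polymerase and primase genes fell on Chinese fir wood in 6 of 16 tested cases and rose in none. This was 37.5% of the list, where 24.5% of all tested genes fell. On rice straw none was called, where 20.9% of all tested genes were. On poplar wood 3 fell (18.8%, where 17.1% of all tested genes fell), 1 of them without poplar 1 or the intermediate libraries. The 6 that fell on Chinese fir wood were both genes described as DPB4, pol1, both spp1 copies and DPB2 A05511. Only DPB4 A09693 was called after scaling, and 2 were called without the intermediate libraries. The count was 3 without Chinese fir 2, PDA 1 or PDA 2. Against Chinese fir wood, 6 were higher on poplar wood (37.5%, where 17.5% of all tested genes were). After scaling 1 of them was called, where 9.64% of all tested genes were higher. The count before scaling was 10 without poplar 1, 1 without poplar 3 and 2 without the intermediate libraries. It was 3 without poplar 2, Chinese fir 1 or Chinese fir 2.

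DPB4, a histone-fold subunit of polymerase epsilon, had the largest difference of this list. For A09693, levels were 13.9, 11 and 13.7 FPKM on Chinese fir wood, 39.5, 60.4 and 27.2 on poplar wood, 92.2, 103 and 116 on PDA and 81.4, 86.6 and 99.7 on rice straw. Chinese fir wood and poplar wood did not overlap each other or the other groups, while rice straw overlapped PDA. The log2 difference from PDA was -2.92 on Chinese fir wood (SE 0.25, limma adjusted p = 3.89e-06) and -1.34 on poplar wood (SE 0.25, limma adjusted p = 0.00125). Poplar wood was above Chinese fir wood by 1.58 (SE 0.25, limma adjusted p = 0.000514), and Chinese fir wood was below rice straw by a log2 difference of -2.70 (SE 0.25, limma adjusted p = 1.31e-05). All 4 calls held throughout. The other gene with this description, A16499, has a coding length of 4605 bp, against 498 bp for A09693. It was at 7.49, 5.42 and 7.74 FPKM on Chinese fir wood and 15, 17.4 and 17.4 on PDA (log2 difference -1.17, SE 0.21, limma adjusted p = 0.000879), a call lost after scaling (-0.63).

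Catalytic subunits spread widely among the poplar libraries. For pol1, the polymerase that extends primers, levels were 3.45, 10.4 and 21.6 FPKM on poplar wood, 3.55, 2.1 and 4.67 on Chinese fir wood, 11, 11 and 9.95 on PDA and 5.4, 8.12 and 6.51 on rice straw. Chinese fir wood was below PDA without overlap (log2 difference -1.43, SE 0.45, limma adjusted p = 0.0204), a call lost without Chinese fir 2, PDA 1, PDA 2 or the intermediate libraries. For pol3, of polymerase delta, levels were 4.59, 11.8 and 28 FPKM on poplar wood and 4.26, 2.59 and 5.54 on Chinese fir wood. These groups overlapped, and their log2 difference of 1.36 (SE 0.46, limma adjusted p = 0.0319) was lost without poplar 2, poplar 3, Chinese fir 1, Chinese fir 2 or the intermediate libraries, and after scaling. POL2, of polymerase epsilon, was at 1.95, 4.18 and 5.99 FPKM on poplar wood and 3.24 to 6.03 FPKM elsewhere, and was called in no comparison.

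Primase and the small epsilon subunits gave further single calls. For spp1 A00485, the primase small subunit, levels were 1.13, 1.67 and 1.8 FPKM on Chinese fir wood and 5.35, 5.18 and 5.59 on PDA, with no overlap (log2 difference -1.34, SE 0.34, limma adjusted p = 0.0064). This call was lost without the intermediate libraries. On poplar wood dpb3 A05600, another epsilon subunit, was at 2.68, 5.79 and 9.02 FPKM against 14.2, 16.6 and 13.9 on PDA (log2 difference -1.33, SE 0.32, limma adjusted p = 0.00563), a call lost without poplar 1 or the intermediate libraries. The lowest level of this gene was in poplar 1.

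Of 14 clamp, loader and lagging strand genes, 1 was called higher and 2 lower than on PDA on poplar wood, 2 lower on Chinese fir wood and none on rice straw (21.4%, 14.3% and 0%, with backgrounds of 25.4%, 30.5% and 20.9%). Without the intermediate libraries 1 was lower on poplar wood and none on Chinese fir wood. Without poplar 1, 4 were higher on poplar wood, and without poplar 3, 4 were lower. Poplar wood was above Chinese fir wood for 4 of the 14 (28.6%, where 17.5% of all tested genes were higher). After scaling 2 were called, where 9.64% of all tested genes were higher. The count before scaling was 7 without poplar 1, 2 without poplar 3 and 2 without the intermediate libraries.

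The clamp gene described as PCNA, A01312 (coding length 4278 bp), was at 253, 250 and 103 FPKM on poplar wood, 66.1, 82.4 and 52.4 on Chinese fir wood, 64.2, 70.7 and 76.9 on PDA and 52.4, 37.9 and 48 on rice straw. Every poplar library was above every other library, with poplar 3 closest to them. Its log2 difference on poplar wood was 1.40 from PDA (SE 0.31, limma adjusted p = 0.00396), 1.49 from Chinese fir wood (SE 0.31, limma adjusted p = 0.00289) and 2.01 from rice straw (SE 0.31, limma adjusted p = 0.000316). These calls held throughout. The other gene with this description, A00176 (4596 bp), was at 204, 239 and 140 FPKM on poplar wood and 107 to 180 FPKM elsewhere, and was called in no comparison.

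The clamp loader genes rfc3 and rfc4 had their lowest mean level on Chinese fir wood. For rfc3, levels were 4.53, 2.31 and 5.12 FPKM on Chinese fir wood, 3.05, 10.9 and 21.1 on poplar wood, 17.7, 16.2 and 15.8 on PDA and 20.4, 20.9 and 20.9 on rice straw. Chinese fir wood was below rice straw and PDA without overlap, and poplar wood spanned both ranges. The log2 differences of -1.87 from PDA (SE 0.47, limma adjusted p = 0.006) and -2.17 from rice straw (SE 0.47, limma adjusted p = 0.00384) held after scaling and were lost without the intermediate libraries. For rfc4, levels were 18, 31.4 and 89.2 FPKM on poplar wood and 11, 9.6 and 8.88 on Chinese fir wood, with no overlap (log2 difference 1.82, SE 0.41, limma adjusted p = 0.0045). Its fall on Chinese fir wood against PDA (-1.29, SE 0.41, limma adjusted p = 0.0215) was lost without Chinese fir 2 or 3, PDA 2 or 3, the intermediate libraries, or after scaling.

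Both genes described as adl1, a DNA ligase, fell on poplar wood. A06566 was at 1.29, 0.918 and 0.977 FPKM on poplar wood and 8.35, 5.47 and 2.75 on PDA (log2 difference -1.57, SE 0.28, limma adjusted p = 0.00102). The PDA libraries differed by more than the poplar libraries, and the groups did not overlap. A07117 gave -1.04 (SE 0.23, limma adjusted p = 0.00317), lost without PDA 1 or PDA 2, without the intermediate libraries and after scaling. The replicative ligase cdc17 was at 3.81, 7.1 and 22.7 FPKM on poplar wood and 2.45 to 8.99 FPKM elsewhere, and was not called.

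The poplar libraries were ordered alike across the replication lists and across several lists outside replication. Poplar 1 was lowest and poplar 3 highest of the 3 for 11 of 13 licensing genes, 14 of 16 polymerase and primase genes and 10 of 14 clamp and lagging strand genes, where 37.2% of all tested genes had that order. The opposite order was found for 0, 0 and 1 of them. The first order also held for 72.7% of the ubiquitin ligase genes, 81.2% of the core histone genes and 77.3% of the tubulin and kinesin genes. It held for 75% of the septin genes and 71.4% of the kinetochore genes, so it was not particular to replication. Chromosome structure and spindle checkpoint genes had it in 64.3%, and other kinases and phosphatases in 63.2%. It was less common among cyclin genes (50%, 37.5% reversed), DNA damage checkpoint genes (20%, 30% reversed) and genes outside the named role lists (33.3%). The median difference of poplar 3 from poplar 1 on the log2 scale was 1.63, 1.61 and 1.40 in the licensing, polymerase and clamp lists. Over all tested genes it was 0.27. In the other groups the median range of the licensing genes over 3 libraries was 0.42, 0.42 and 0.24 on the log2 scale. The median deviation of licensing genes from their mean over the 12 libraries was -0.58 in poplar 1, 0.43 in poplar 2 and 1.22 in poplar 3. Poplar 1 was within the range of the Chinese fir libraries (-0.53, -0.77 and -0.35), and poplar 3 was above PDA (0.34, 0.44 and 0.44). The same order of the poplar libraries was seen for 8 of 27 mycelium markers (29.6%), whose median difference of poplar 3 from poplar 1 was -0.04. It was also seen for 3 of the 4 meiotic markers, and dmc1, which acts in meiotic recombination, was at 60.9, 127 and 153 FPKM in the poplar libraries. The part of meiotic cells in this order was not tested.

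**Figure D4:**
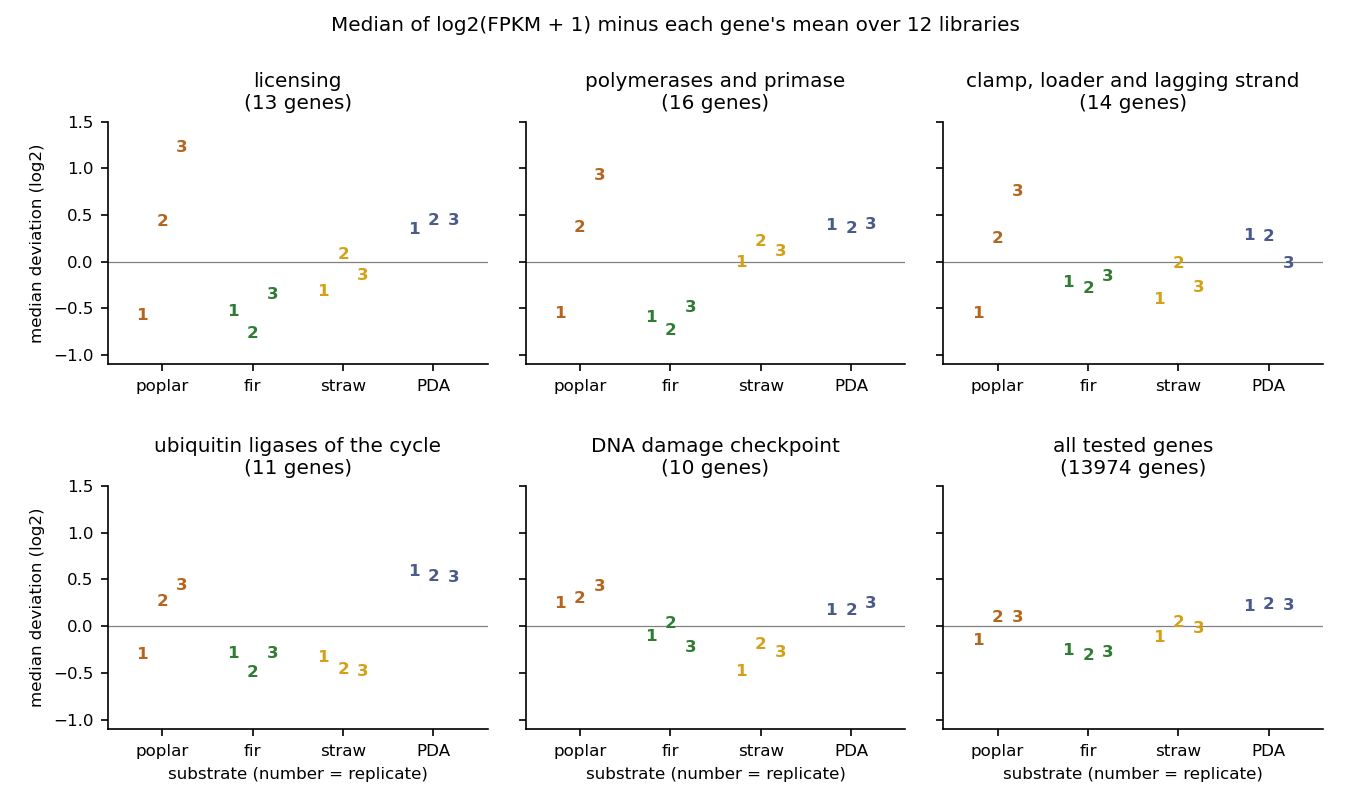
Median over the genes of a list of log2(FPKM + 1) minus the gene's mean over 12 libraries, 1 number per library naming the replicate. In the licensing, polymerase and clamp lists the poplar libraries run from below -0.5 to above 0.7, while all tested genes stay between -0.31 and 0.23.

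Of 8 genes for cyclins and their direct controls, 2 were called higher on rice straw than on PDA (25%). Against PDA, poplar wood had 1 call, higher (12.5%), and Chinese fir wood had 1 higher and 1 lower (12.5% each). Among all tested genes, 6.81% were called higher on rice straw, 8.3% on poplar wood and 5.91% on Chinese fir wood. Lower calls on Chinese fir wood made up 24.5% of all tested genes. The genes called on rice straw were 2 of the 4 described as cdc13, the mitotic cyclin that partners the kinase starting mitosis. For A11466, levels were 63.5, 53.4 and 60.8 FPKM on rice straw, 29.6, 23.6 and 17.5 on poplar wood, 15.6, 14.3 and 17.1 on Chinese fir wood and 25, 26.3 and 25.6 on PDA. All rice straw libraries lay above all others. The log2 difference of rice straw from PDA was 1.17 (SE 0.19, limma adjusted p = 0.000688), and poplar wood and Chinese fir wood were below rice straw by -1.32 (SE 0.19, limma adjusted p = 0.000199) and -1.85 (SE 0.19, limma adjusted p = 3.06e-05).

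A11608, of the same length of 2715 bp, was at 58.4, 50.7 and 54.5 FPKM on rice straw and 23.1, 23.8 and 22.8 on PDA (log2 difference 1.19, SE 0.20, limma adjusted p = 0.000829). All calls of both copies held throughout. The other cdc13 genes, A05084 and A14412, have other lengths and were called in no comparison. On rice straw they were at 12, 12.3 and 10.8 and at 6.06, 8.62 and 7.87 FPKM, and on PDA at 14.3, 14.7 and 12.9 and at 8.71, 8.87 and 10.

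The controls of the mitotic kinase moved on the woods. For wee1, the kinase that delays mitosis, levels were 97.1, 101 and 128 FPKM on poplar wood, 56, 51 and 57.7 on Chinese fir wood, 41.5, 45 and 51.2 on PDA and 38.4, 36.6 and 38 on rice straw. Every poplar library was above every other library, with log2 differences of 1.22 from PDA (SE 0.16, limma adjusted p = 0.00013) and 1.49 from rice straw (SE 0.16, limma adjusted p = 2.57e-05) that held throughout. Its opponent cdc25 was at 5.17, 4.69 and 5.51 FPKM on Chinese fir wood and 12.2, 12.1 and 12.8 on PDA (log2 difference -1.13, SE 0.38, limma adjusted p = 0.0255), and at 2.54, 11.4 and 11 on poplar wood. That call was lost without any 1 of the 6 libraries of the 2 groups, without the intermediate libraries and after scaling.

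CKS1, the small subunit of cyclin-dependent kinases, was the most abundant of the 8 genes of this list. It was at 217, 218 and 239 FPKM on poplar wood and 98, 114 and 108 on rice straw, with no overlap (log2 difference 1.07, SE 0.14, limma adjusted p = 0.000109). PCL1, a cyclin of the phosphate-sensing kinase PHO85 in budding yeast, was at 17.8, 19 and 14.9 FPKM on Chinese fir wood and 7.64, 8.86 and 6.5 on PDA (log2 difference 1.07, SE 0.24, limma adjusted p = 0.00306), a call lost without PDA 3 or the intermediate libraries.

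Ubiquitin ligase genes of the cycle fell on rice straw in 6 of 11 tested cases and rose in none. This was 54.5% of the list, where 14.1% of all tested genes fell. The 6 genes were nuc2 and cut23 of the anaphase-promoting complex, 2 genes described as its activator slp1, and skp1 and cul1 of the SCF ligase. Of these, nuc2 and cul1 were called after scaling, and 3 of the list (nuc2, skp1 and cul1) were called without the intermediate libraries. The list median was -1.04 on rice straw and -0.76 after scaling.

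For nuc2, levels were 8.49, 10.6 and 10.6 FPKM on rice straw, 8.18, 8.65 and 7.2 on Chinese fir wood, 32.2, 35.5 and 21.8 on poplar wood and 50.3, 52.4 and 58.4 on PDA. PDA was above poplar wood, and poplar wood above both other groups, with no overlap. The log2 differences from PDA were -2.60 on Chinese fir wood (SE 0.20, limma adjusted p = 1.75e-06) and -2.33 on rice straw (SE 0.20, limma adjusted p = 7.17e-06). Poplar wood was above Chinese fir wood by 1.75 (SE 0.20, limma adjusted p = 6.61e-05) and above rice straw by 1.48 (SE 0.20, limma adjusted p = 0.00011). These calls held throughout.

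Another subunit, cut23, had its highest level on poplar wood. Its levels were 34.2, 39.6 and 28 FPKM there, 11.1, 12.5 and 9.08 on Chinese fir wood, 20.9, 23.5 and 23.3 on PDA and 10.8, 10.5 and 10 on rice straw. The poplar libraries were the highest 3, with log2 differences of 1.55 from Chinese fir wood (SE 0.18, limma adjusted p = 7.31e-05) and 1.60 from rice straw (SE 0.18, limma adjusted p = 3.13e-05). Its fall on rice straw against PDA (-1.04, SE 0.18, limma adjusted p = 0.000956) was lost after scaling and without the intermediate libraries.

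The activator slp1 A16301 was lower than PDA on all 3 plant materials. Its levels were 32.1, 30.6 and 27.4 FPKM on PDA, 8.12, 14 and 19.1 on poplar wood, 12.2, 9.92 and 11.5 on Chinese fir wood and 12.3, 14.9 and 14 on rice straw. No plant library reached the PDA range. The log2 differences were -1.15 (SE 0.25, limma adjusted p = 0.00322), -1.35 (SE 0.25, limma adjusted p = 0.000972) and -1.08 (SE 0.25, limma adjusted p = 0.00566) in that order. The poplar call was lost without poplar 1, the rice straw call without the intermediate libraries, and all 3 after scaling (-0.93, -0.79 and -0.80).

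The adaptor skp1 was the most abundant gene of this list. It was at 627, 701 and 712 FPKM on rice straw, 803, 1130 and 1360 on poplar wood, 882, 835 and 907 on Chinese fir wood and 1580, 1610 and 1570 on PDA. Rice straw was the lowest group without overlap (log2 difference from PDA -1.23, SE 0.19, limma adjusted p = 0.000531), and the call was lost after scaling (-0.93). The SCF scaffold cul1 was at 53.2, 64.9 and 63.8 FPKM on rice straw and 152, 160 and 154 on PDA (log2 difference -1.35, SE 0.17, limma adjusted p = 0.000109), a call that held after scaling.

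Chromosome structure and spindle checkpoint genes fell on Chinese fir wood in 5 of 14 tested cases (bub1, cnd3, cut3, psm1 and mad1). This was 35.7% of the list, where 24.5% of all tested genes fell. Of the 5 genes, bub1 was called after scaling and cut3 without the intermediate libraries. For bub1, a spindle checkpoint kinase, levels were 16.7, 16 and 19.8 FPKM on Chinese fir wood, 130, 37.4 and 25.8 on poplar wood, 54.9, 102 and 143 on PDA and 41.7, 16.7 and 22.5 on rice straw. Libraries of the same group differed widely in all groups but Chinese fir wood. The log2 difference from PDA was -2.35 on Chinese fir wood (SE 0.53, limma adjusted p = 0.00341), lost without the intermediate libraries, and -1.84 on rice straw (SE 0.53, limma adjusted p = 0.0176), lost without PDA 2 or 3, rice straw 2 or 3, the intermediate libraries, or after scaling.

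For psc3 A12484, a cohesin subunit that holds sister chromatids together, levels were 21.8, 18.8 and 17.5 FPKM on poplar wood, 5.92, 5.79 and 5.37 on Chinese fir wood, 10.2, 10.1 and 11.2 on PDA and 7.03, 6.97 and 6.39 on rice straw. Every poplar library was above every other, with log2 differences of 1.60 from Chinese fir wood (SE 0.16, limma adjusted p = 2.77e-05) and 1.38 from rice straw (SE 0.16, limma adjusted p = 3.4e-05), and both calls held throughout. Its copy A16669 was also higher on poplar wood than on Chinese fir wood (1.24, SE 0.21, limma adjusted p = 0.000894), a call lost after scaling (0.93).

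The condensin subunit cnd3, which helps to compact chromosomes, had its lowest levels on the woods. Its levels were 2.96, 8.13 and 12.1 FPKM on poplar wood, 7.64, 5.13 and 9.91 on Chinese fir wood, 19.9, 20.8 and 17.3 on PDA and 13.4, 18.1 and 17.2 on rice straw. The woods were below PDA without overlap. The differences of -1.38 on poplar wood (SE 0.37, limma adjusted p = 0.0101) and -1.28 on Chinese fir wood (SE 0.37, limma adjusted p = 0.0123) were lost without poplar 1 and without Chinese fir 2 in turn, and both without the intermediate libraries. After scaling the Chinese fir call was lost as well.

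DNA damage checkpoint genes had few calls: 1 higher on poplar wood, 1 higher and 1 lower on Chinese fir wood and 1 lower on rice straw, of 10 tested. These are 10%, 20% and 10% of the list, where 25.4%, 30.5% and 20.9% of all tested genes were called. After scaling 3 of the list were higher on Chinese fir wood, where 11.7% of all tested genes were. None was then lower on Chinese fir wood or rice straw. Before scaling, these calls were all among the 5 genes described as cds1, a checkpoint kinase. A06693 was at 9.27, 6.36 and 5.32 FPKM on poplar wood, 6.57, 8.28 and 6.43 on Chinese fir wood, 1.81, 3 and 2.23 on PDA and 1.99, 1.54 and 1.88 on rice straw. Both woods lay above rice straw and PDA without overlap. The log2 differences from PDA were 1.24 on poplar wood (SE 0.22, limma adjusted p = 0.000815) and 1.28 on Chinese fir wood (SE 0.22, limma adjusted p = 0.000522), and those from rice straw 1.48 (SE 0.22, limma adjusted p = 0.000197) and 1.53 (SE 0.22, limma adjusted p = 0.00027). All 4 held throughout.

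The most abundant cds1 gene, A12144, moved the other way. It was at 9.01, 13.6 and 12 FPKM on rice straw, 10.7, 10.3 and 12.1 on Chinese fir wood, 9.64, 20.5 and 37.7 on poplar wood and 22.2, 23.3 and 27 on PDA. Its calls on Chinese fir wood (-1.06, SE 0.36, limma adjusted p = 0.0278) and rice straw (-1.02, SE 0.36, limma adjusted p = 0.043) were lost in 6 and 10 of the 12 fits that left out 1 library, without the intermediate libraries, and after scaling. Outside cds1, rad17 A14343 of the checkpoint clamp loader was higher on poplar wood, at 1.74, 1.13 and 2.42 FPKM, than on Chinese fir wood, at 0.229, 0.344 and 0.256 (log2 difference 1.09, SE 0.18, limma adjusted p = 0.000649), a call lost without poplar 3 and after scaling. The other 3 cds1 genes, DUN1, rad1 and both rad9 genes were called in no comparison.

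Other kinases and phosphatases fell on Chinese fir wood in 6 of 19 tested cases, on rice straw in 4 and on poplar wood in 1, and none rose against PDA. These are 31.6%, 21.1% and 5.26% of the list, where 24.5%, 14.1% and 17.1% of all tested genes fell. After scaling 3, 2 and 1 of these were called, and without the intermediate libraries 4, 1 and 1. Without poplar 3, 5 were called lower on poplar wood and without poplar 1, 2 were. For the phosphatase cdcA, levels were 13.4, 17.6 and 23.7 FPKM on poplar wood, 28.3, 22.7 and 37.6 on Chinese fir wood, 66.5, 56.3 and 48 on PDA and 25.6, 32.3 and 25 on rice straw. The PDA libraries were the highest 3, and the log2 difference of poplar wood from PDA was -1.61 (SE 0.24, limma adjusted p = 0.000307). The MAP kinase PMK1 was at 15.9, 23.2 and 18 FPKM on rice straw and 48.1, 57.2 and 59.7 on PDA (log2 difference -1.49, SE 0.21, limma adjusted p = 0.000246). Both calls held throughout.

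The 2 genes described as the MAP kinase mpkB were far apart in level. A04349 was the most abundant gene of the list, at 1040, 1110 and 876 FPKM on poplar wood and 503 to 842 FPKM elsewhere, and was called in no comparison. A17267 was at 20.8, 25.1 and 25.8 FPKM on rice straw, 12.2, 11.7 and 15.2 on Chinese fir wood, 13.7, 34.6 and 47.4 on poplar wood and 44.7, 48.6 and 48.9 on PDA. On Chinese fir wood it fell below PDA without overlap (log2 difference -1.79, SE 0.34, limma adjusted p = 0.00112), a call that held throughout.

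Of the 147 genes, 1 was called higher on all 3 plant materials against PDA (0.68%, where 1.18% of all tested genes were) and 4 were called lower (2.72%, where 5.06% were). Besides slp1 A16301, the lower genes were mob2, a deacetylase described as hst2-1 (A18226), and A01710, which has no description. For mob2, which in budding yeast works with a kinase of cell separation and polar growth, levels were 57.3, 50.4 and 43.2 FPKM on poplar wood, 48.5, 62.5 and 39.4 on Chinese fir wood, 153, 141 and 123 on PDA and 25.7, 30.5 and 26.7 on rice straw. PDA was above both woods and rice straw below them, with no overlap. The log2 differences were -1.45 (SE 0.20, limma adjusted p = 0.000141), -1.47 (SE 0.20, limma adjusted p = 0.000101) and -2.29 (SE 0.20, limma adjusted p = 7.88e-06), and the Chinese fir call was lost after scaling (-0.89).

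The deacetylase A18226 was at 47, 44.7 and 42.5 FPKM on PDA, 10.7, 15.8 and 15 on poplar wood, 11.4, 8.36 and 12.2 on Chinese fir wood and 10.4, 15.1 and 12.2 on rice straw. The 3 plant materials overlapped each other and none reached PDA. Their log2 differences were -1.64 (SE 0.21, limma adjusted p = 8.74e-05), -1.99 (SE 0.21, limma adjusted p = 1.7e-05) and -1.76 (SE 0.21, limma adjusted p = 7.04e-05), and all 3 calls held throughout.

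A01710 had the largest fall of the 147 genes in each comparison with PDA, with levels of 224, 234 and 276 FPKM on PDA, 61.9, 69.1 and 43.3 on poplar wood, 14.6, 22.5 and 9.82 on Chinese fir wood and 31.7, 25.5 and 27.6 on rice straw. The 4 groups did not overlap. The log2 differences from PDA were -2.07 (SE 0.27, limma adjusted p = 9.7e-05), -3.95 (SE 0.27, limma adjusted p = 6.85e-07) and -3.07 (SE 0.27, limma adjusted p = 8.23e-06), and all 3 calls held throughout.

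The gene higher on all 3, A07058, has no description either. It was at 26.9, 18.1 and 8.81 FPKM on poplar wood, 26.1, 17.3 and 40.7 on Chinese fir wood, 2.09, 2.47 and 3.12 on PDA and 6.56, 8.95 and 7.86 on rice straw. Every plant library was above PDA. The log2 differences were 2.29 (SE 0.37, limma adjusted p = 0.000442), 2.96 (SE 0.37, limma adjusted p = 5.74e-05) and 1.30 (SE 0.37, limma adjusted p = 0.0155), and the rice straw call was lost without PDA 1, rice straw 2 or the intermediate libraries.

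The largest difference between plant materials was in A15717, which carries a cell cycle pathway name but is described as FUS6, an efflux pump. Its levels were 134, 94.6 and 167 FPKM on Chinese fir wood, 67.3, 55.8 and 126 on poplar wood, 12.6, 15.6 and 16.8 on PDA and 8.24, 9.18 and 9.1 on rice straw. Both woods were above PDA, and PDA above rice straw, without overlap. The log2 difference of Chinese fir wood was 3.03 from PDA (SE 0.29, limma adjusted p = 8.64e-06) and 3.72 from rice straw (SE 0.29, limma adjusted p = 4.8e-06), and that of poplar wood 2.31 (SE 0.29, limma adjusted p = 7.68e-05) and 3.01 (SE 0.29, limma adjusted p = 1.05e-05). These calls held throughout.

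For mob1, which in fission yeast works with the septation kinase sid2, levels were 9.29, 19.5 and 42.4 FPKM on poplar wood, 40.8, 33.2 and 37.8 on Chinese fir wood, 60.5, 57.7 and 55 on PDA and 56.4, 57 and 60.3 on rice straw. All poplar libraries were below rice straw and PDA, poplar 1 most. The log2 difference of -1.49 from PDA (SE 0.38, limma adjusted p = 0.00783) was lost without poplar 1 or the intermediate libraries. Neither sid2 gene was called in any comparison.

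Both genes described as skb1, an arginine methyltransferase, had their highest levels on poplar wood. A11559 was at 7.32, 14.2 and 12.1 FPKM there, 4.54, 4.36 and 4.66 on Chinese fir wood, 4.24, 5 and 4.94 on PDA and 3.51, 3.91 and 2.75 on rice straw. The poplar libraries were the highest 3, with a log2 difference of 1.44 from rice straw (SE 0.22, limma adjusted p = 0.000285) that held throughout. A18016 was higher on poplar wood than on Chinese fir wood by 1.34 (SE 0.25, limma adjusted p = 0.00124), which also held throughout.

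Further genes without a description separated the substrates. A16226 was at 4.56, 9.38 and 7.11 FPKM on poplar wood, 1.29, 1.49 and 1.01 on Chinese fir wood, 2.69, 2.98 and 2.63 on PDA and 0.654, 1.75 and 1.44 on rice straw. The poplar libraries were the highest 3, and poplar wood was above rice straw by 1.80 on the log2 scale (SE 0.25, limma adjusted p = 0.000129). A02672 was at 2.14, 4.18 and 1.61 FPKM on poplar wood, 2.6, 1.56 and 2.84 on Chinese fir wood, 6.95, 7.73 and 7.93 on PDA and 13.1, 8.75 and 9.58 on rice straw. Both woods lay below rice straw and PDA, with a log2 difference of -1.79 between Chinese fir wood and rice straw (SE 0.26, limma adjusted p = 0.000359). Both calls held throughout.

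PHO85, a cyclin-dependent kinase of phosphate sensing in budding yeast, was the most abundant gene outside the named role lists. Its levels were 346, 277 and 290 FPKM on poplar wood, 224, 308 and 146 on Chinese fir wood, 256, 263 and 261 on PDA and 160, 137 and 148 on rice straw. Chinese fir libraries covered almost the whole range of the other groups. Poplar wood was above rice straw by 1.03 (SE 0.23, limma adjusted p = 0.00383), a call lost without poplar 1, rice straw 2 or the intermediate libraries, and after scaling.

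The 17 genes that did not pass the level filter were both orc2 copies, 2 of 3 orc3 copies, DPB2 A16985, both spb70 copies of polymerase alpha, rnh1 A13104 and both rnh202 copies of ribonuclease H, SMC2 A10627, rad17 A07600, 2 slp1 copies, both GIN4 kinases and stk-4 A00040. They are in no count of called genes above.

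Genes of DNA synthesis and division outside the pathway names were also counted. Of 18 genes described as core histones, which package new DNA, 16 were tested, and 1 of these, CHZ1, is a histone chaperone by its description. On rice straw 11 of the 16 fell against PDA and none rose (list median -1.11, and -0.25 over all tested genes), and 11 were higher on poplar wood than on rice straw, where 14.1% and 14.4% of all tested genes were called in these directions. The chaperone CHZ1 is among the 11 genes in both counts. For HHT2 A18375, described as histone H3.2, levels were 65, 65.9 and 63.2 FPKM on rice straw, 577, 614 and 422 on poplar wood, 177, 212 and 170 on Chinese fir wood and 370, 397 and 413 on PDA. The 4 groups did not overlap, and the log2 difference of rice straw from PDA was -2.58 (SE 0.18, limma adjusted p = 1.52e-06). After scaling 5 of the list were lower on rice straw than on PDA (median -0.81) and 10 were higher on poplar wood than on rice straw. Without the intermediate libraries these counts were 5 and 8, and the second was 7 without poplar 3. The summed level was 3620, 3520 and 3740 FPKM on rice straw, 6030, 7130 and 8270 on poplar wood, 5020, 4780 and 5290 on Chinese fir wood and 8080, 8000 and 8000 on PDA.

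**Figure D5:**
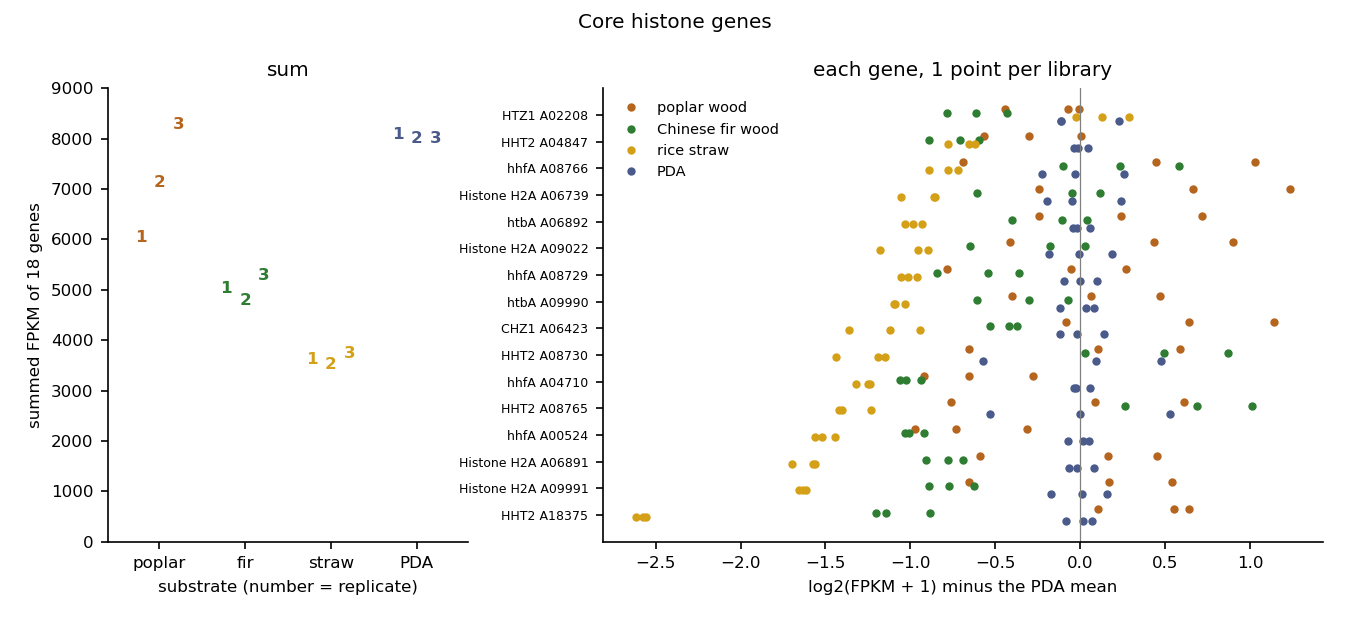
Summed level of the 18 core histone genes in each library (left, FPKM from 0) and each of the 16 tested genes as log2(FPKM + 1) minus its PDA mean (right, 1 point per library). Both include the chaperone CHZ1. The 3 rice straw sums, 3520 to 3740 FPKM, are the lowest, and rice straw lies left of PDA without overlap for 15 of the 16 genes (43.9% of all tested genes).

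Nucleotide supply genes had 1 call lower on each plant material against PDA, of 9 tested. Among them tmp1, a thymidylate kinase, was at 3.04, 7.8 and 10.2 FPKM on poplar wood, 5.57, 4.18 and 6.49 on Chinese fir wood, 15.1, 17.9 and 17.3 on PDA and 13.3, 15.2 and 14.6 on rice straw, and it was the gene that fell on both woods. All 3 calls were lost without the intermediate libraries, the poplar call without poplar 1 and the rice straw call without PDA 3 or rice straw 1. After scaling 1 gene was called higher and none lower on Chinese fir wood, and likewise on rice straw. Of all tested genes, 11.7% and 10% were then called higher on these materials. Poplar 1 was lowest and poplar 3 highest for 8 of the 9, the order seen in the replication lists. Tubulin and kinesin genes had 1 call of 22 on poplar wood, higher, 2 on Chinese fir wood, lower, and 0 on rice straw, where 8.3% of all tested genes rose on poplar wood and 24.5% fell on Chinese fir wood. After scaling 2 were higher and 1 lower on Chinese fir wood, and on poplar wood 2 were lower without poplar 3 and 1 without poplar 2 or PDA 1. Of 8 septin genes, which mark the division site in yeasts, 2 fell on poplar wood, 1 on rice straw and 0 on Chinese fir wood (background 17.1%, 14.1% and 24.5%). After scaling 1 was higher and 1 lower on poplar wood, and 2 were higher and 0 lower on rice straw, whose call was also lost without the intermediate libraries. Without poplar 1, 4 septin genes were called higher and 1 lower on poplar wood. Of 7 kinetochore genes 1 fell on rice straw and 1 on Chinese fir wood (14.3% each, where 14.1% and 24.5% of all tested genes fell). None was called against PDA after scaling or without the intermediate libraries. The rice straw call was also lost without PDA 2, PDA 3, rice straw 1 or rice straw 2 alone.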

How the data were processed

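The table holds FPKM values of 16059 genes in 12 libraries, computed by the authors and deposited with 1 column per library. The submitters' processing notes name fastp, HISAT2, HTSeq and DESeq2 without roles or versions, and the genome build and annotation are not given in the sources used here. Values per gene came out as whole reads within 0.001 for 16059 of 16059 genes, which gave the library totals, of which 99.74% to 99.98% lay in the listed genes. Genes with at least 1 FPKM in at least 3 libraries were fitted on log2(FPKM + 1) with limma 3.58.1 in R 4.3.3 (trended empirical Bayes, 4 groups in 1 fit, 6 comparisons), with Benjamini-Hochberg adjustment over all 13974 genes. The fit was tested on simulated data. Nothing states whether the biological replicates are separate cultures, so p-values measure the spread between these libraries. Replicate numbers did not pair the libraries: the correlation of deviations over 18 same-numbered pairs was -0.192 to 0.327 (median -0.014), with 2 pairs over 0.1.

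The members and lists were chosen with earlier results of these data known. Role lists were made from words in the descriptions. Named genes were the largest called change per role and comparison with PDA, the most abundant gene per role, genes called alike in all 3 comparisons with PDA, the MCM, PCNA, polymerase and cyclin genes, and the 4 largest called differences between plant materials. Other named genes (orc1 on rice straw, orc4, cdc18, hsk1, him1, DPB4 A16499, spp1, dpb3, the second adl1, cdc17, cut23, cul1, psc3, rad17, mob1, skb1, HHT2, tmp1 and dmc1) were chosen after their values were seen. The alternatives were pseudocounts of 0.1 and 5, no filter, a filter at 5 FPKM, median-of-ratios scaling, fits of only the 2 groups compared, a replicate block and each library left out. Leaving out the 3 intermediate libraries and voom on the worked-back reads were added after the data were seen.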

Additional observations from a re-analysis of the deposited data

How the results depend on the processing

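Counts of called genes among the 147 moved most with pseudocount, scaling and libraries. With a pseudocount of 5 they were 4 higher and 7 lower on poplar wood against PDA, 3 and 14 on Chinese fir wood against PDA, 10 lower on rice straw against PDA, 11 higher on poplar wood than Chinese fir wood, 10 higher and 5 lower on poplar wood than rice straw, and 2 higher on Chinese fir wood than rice straw. A larger pseudocount shrinks differences by construction. After scaling they were 9 higher and 12 lower on Chinese fir wood and 7 lower on rice straw against PDA, 11 higher and 6 lower on poplar wood than Chinese fir wood, and 11 higher on Chinese fir wood than rice straw. Without the intermediate libraries they were 8 lower on poplar wood, 7 on rice straw and 19 on Chinese fir wood against PDA, 27 higher on poplar wood than Chinese fir wood, 5 lower on poplar wood than rice straw, and 3 higher on Chinese fir wood than rice straw. A pseudocount of 0.1 and voom gave 47 and 48 lower on Chinese fir wood against PDA, where the main fit gave 37. On rice straw against PDA they gave 29 and 30 lower, where the main fit gave 20. Each gave 48 higher and 2 lower on poplar wood than Chinese fir wood, where the main fit gave 41 and 1. Each also gave 30 higher on poplar wood than rice straw, where the main fit gave 22. The cause of the other changes was not tested.

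With each library left out, the counts higher and lower were 5 to 13 and 10 to 23 for poplar wood against PDA, 4 to 5 and 29 to 40 for Chinese fir wood, 2 to 3 and 14 to 22 for rice straw, 23 to 61 and 1 to 6 for poplar wood against Chinese fir wood, 20 to 41 and 5 to 11 for poplar wood against rice straw, and 5 to 6 and 8 to 11 for Chinese fir wood against rice straw. With the replicate number as a block, all 12 counts were the same (for example 41 higher on poplar wood than Chinese fir wood, 40 of them shared, and 37 lower on Chinese fir wood than PDA). No called difference changed sign under the alternatives run, but scaling turned the median of the 147 genes from -0.09 to 0.09 for poplar wood against PDA and from -0.21 to 0.05 for Chinese fir wood against rice straw. Fold changes of genes at a few FPKM are understated, because the pseudocount shrinks them.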
